A study of Homo sapiens with 24 samples.

Results

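The genes described here carry amino acids into the cell or make serine, glycine and asparagine inside it. They are the transporter genes SLC7A11, SLC7A1, SLC7A5, SLC3A2 and SLC1A5, and the enzyme genes PHGDH, PSAT1, PSPH, SHMT2 and ASNS. A gene was taken from the core summaries of the array where a transcript cluster, the set of probes read as 1 gene, carried its symbol and no other. Of the 10 genes listed, 9 had such a cluster among 14232 genes in all. The cluster of PSPH carries another symbol beside it, and PSPH was not analysed here. SLC1A5 had 2 clusters with its symbol alone, and the one with the higher mean over the 12 arrays was used.

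RNA came from 2 established human lines of B cell acute lymphoblastic leukemia, MHH-CALL4 and MUTZ-5. Each line was exposed for 8 hours to DMSO, the solvent control, or to 500 nM JQ1, an inhibitor of the BET bromodomain proteins that read acetylated chromatin, with 3 samples for each of the 4 groups. All groups grew in the same RPMI medium with serum, antibiotics and added L-glutamine. Each line stands for the leukemia of 1 patient, and nothing in the labels tells if replicates were grown apart, so the spread behind each p-value could be technical. Levels are log2 values after RMA, an array normalization, and a difference of 1 on this scale is a 2-fold change.

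SLC7A11 is the subunit of system xc- that brings cystine in and lets glutamate out, and it feeds glutathione synthesis. SLC7A5 is the large neutral amino acid transporter LAT1, which takes up leucine among others, and SLC3A2 encodes CD98, the heavy chain that both SLC7A5 and SLC7A11 need to reach the cell surface. SLC7A1 carries arginine and other cationic amino acids, and SLC1A5 carries glutamine. Serine is made from a glycolytic intermediate by PHGDH, PSAT1 and PSPH in turn, and SHMT2 splits it in mitochondria into glycine and a carbon unit bound to folate. ASNS makes asparagine, and leukemic lymphoblasts with little of it depend on asparagine from outside, which is the basis of asparaginase treatment. Many of these genes are textbook targets of ATF4, the transcription factor of the amino acid response, and several also of MYC.

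The stretch upstream of the start is shown for some of the genes. RefSeq windows on GRCh38.p14, from 250 bases before to 50 bases after a start, were at hand for 7 of the 10 genes. Windows for SLC7A11, SHMT2 and PSPH were not used here. Each window was searched on both strands for the E-box CACGTG, which MYC and MAX bind, for TGATGNAA, the core of the C/EBP-ATF element bound by ATF4, and for TGACNNNGC, the antioxidant response element bound by NRF2. No match in these windows overlapped another. The 150 bases before the start are printed 5′ to 3′ on the strand of the gene, with matches in capitals. SLC7A5, SLC7A1 and SLC3A2 are shown for their matches, PSAT1 as a gene with a large difference and no match, and ASNS as a gene with a match and a small difference.
SLC7A5, chr16:87869508-87869657, minus strand: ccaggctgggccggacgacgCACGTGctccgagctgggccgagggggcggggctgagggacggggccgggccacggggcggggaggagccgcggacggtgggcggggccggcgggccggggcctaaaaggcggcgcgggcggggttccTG
SLC7A1, chr13:29595689-29595838, minus strand: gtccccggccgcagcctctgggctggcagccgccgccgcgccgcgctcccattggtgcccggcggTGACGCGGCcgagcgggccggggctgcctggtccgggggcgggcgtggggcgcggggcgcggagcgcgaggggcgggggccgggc
SLC3A2, chr11:62881549-62881698, plus strand: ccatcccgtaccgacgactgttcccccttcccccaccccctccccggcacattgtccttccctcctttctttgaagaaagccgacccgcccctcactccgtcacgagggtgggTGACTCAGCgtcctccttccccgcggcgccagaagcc
PSAT1, chr9:78296975-78297124, plus strand: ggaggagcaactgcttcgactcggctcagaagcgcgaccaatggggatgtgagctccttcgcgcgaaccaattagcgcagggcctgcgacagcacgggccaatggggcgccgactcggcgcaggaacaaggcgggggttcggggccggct
ASNS, chr7:97872409-97872558, minus strand: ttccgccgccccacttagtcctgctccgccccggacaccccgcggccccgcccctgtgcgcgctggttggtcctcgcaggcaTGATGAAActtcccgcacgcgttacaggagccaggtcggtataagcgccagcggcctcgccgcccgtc

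Upstream of SLC7A5 the capitals mark an E-box at -130 to -125, counted from the start, and the first letters of an antioxidant response element, TGACGCAGC, that runs from -2 to 7. In SLC7A1 they mark TGACGCGGC at -85 to -77, and a C/EBP-ATF match, TGATGAAA, lies past the start at 8 to 15. SLC3A2 has TGACTCAGC at -37 to -29 in the window shown, and a C/EBP-ATF match on the other strand, TTACATCA, at 38 to 45. ASNS has TGATGAAA at -68 to -61 in the window shown. SLC3A2 and ASNS have other windows too, not shown, which hold none of the letters searched. SLC1A5 has 3 windows, of which 1 holds TGATGCAA and another holds both an E-box and GCGAGGTCA, the antioxidant response letters on the other strand. The windows of PHGDH and PSAT1 hold none of these letters. In all, 2 of the 7 genes have an E-box in a window, 4 a C/EBP-ATF match and 4 an antioxidant response match. Among all 35116 RefSeq windows of this length, 7.26%, 3.62% and 13.3% hold the respective letters. Genes with several windows have more chances of a match, and a match of letters is not evidence of binding. Nor is the lack of a match in such short windows evidence against binding. A relation of the matches to the JQ1 effects was not tested.

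The RNA of both lines carried the markers of precursor B cells. Of 12 such markers measured, 11 lay above the median gene in every group. The mean over these 12 ranged from 11.71 to 12.20 in the DMSO arrays and from 11.45 to 11.89 in the JQ1 arrays. Under JQ1, 5 of the 12 passed the test as lower in MHH-CALL4, where 17.5% of all genes did. In MUTZ-5, 6 were lower and 1 higher, against 13.0% and 9.06% of all genes, and the part of these markers in the results was not tested. Markers of other lineages stayed low: 1 of 11 T and NK cell markers (NKG7) lay above the median gene, with list means of 6.43 to 6.75 on all arrays, and 1 of 5 erythroid and 1 of 8 stromal markers. Of 8 myeloid markers, 1 or 2 lay above it, depending on the group. Array medians ran from 8.46 to 8.57. On the main axis of variation within groups, the arrays farthest out were replicate 3 of the MUTZ-5 controls and replicate 3 of the treated MHH-CALL4 cells. Results without them are given for the 9 genes where a call changed, and for some of the other genes named. Without replicate 3 of the MUTZ-5 controls, 47.3% of the calls in MUTZ-5 were lower instead of 58.9%, and 360 genes instead of 218 were called for unequal JQ1 effects.

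Most of these genes were lower under JQ1. In MHH-CALL4 all 9 measured genes were called lower, at an adjusted p under 0.05 in limma with Benjamini-Hochberg adjustment over all 14232 genes, where 17.5% of genes were called lower and 11.0% higher. In MUTZ-5 7 of the 9 were called lower, against 13.0% of all genes called lower and 9.06% higher. The median difference over the 9 genes was -0.84 in MHH-CALL4 and -0.98 in MUTZ-5, while the median over all genes was 0.0065 and 0.0084. The genes were chosen with earlier results of these data known, so this contrast with all genes describes them and is no test of the list. Of all calls, 61.5% were lower in MHH-CALL4 and 58.9% in MUTZ-5, and with each array centred on its median 51.5% and 48.5% were, with 8 and 7 of the 9 genes called lower.

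SLC7A11, SLC7A1 and PSAT1 fell at least 2-fold in both lines, and SLC7A5 did so in MUTZ-5. A call of at least 2-fold lower was made for 1.59% of all genes in MHH-CALL4 and 1.22% in MUTZ-5. All 3 JQ1 values lay below all 3 DMSO values for 9 of 9 genes in MHH-CALL4, where 24.1% of all genes showed this. In MUTZ-5 the same was seen for 7 of 9 genes, PHGDH and ASNS being the exceptions, against 18.7% of all genes.

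**Figure D1:**
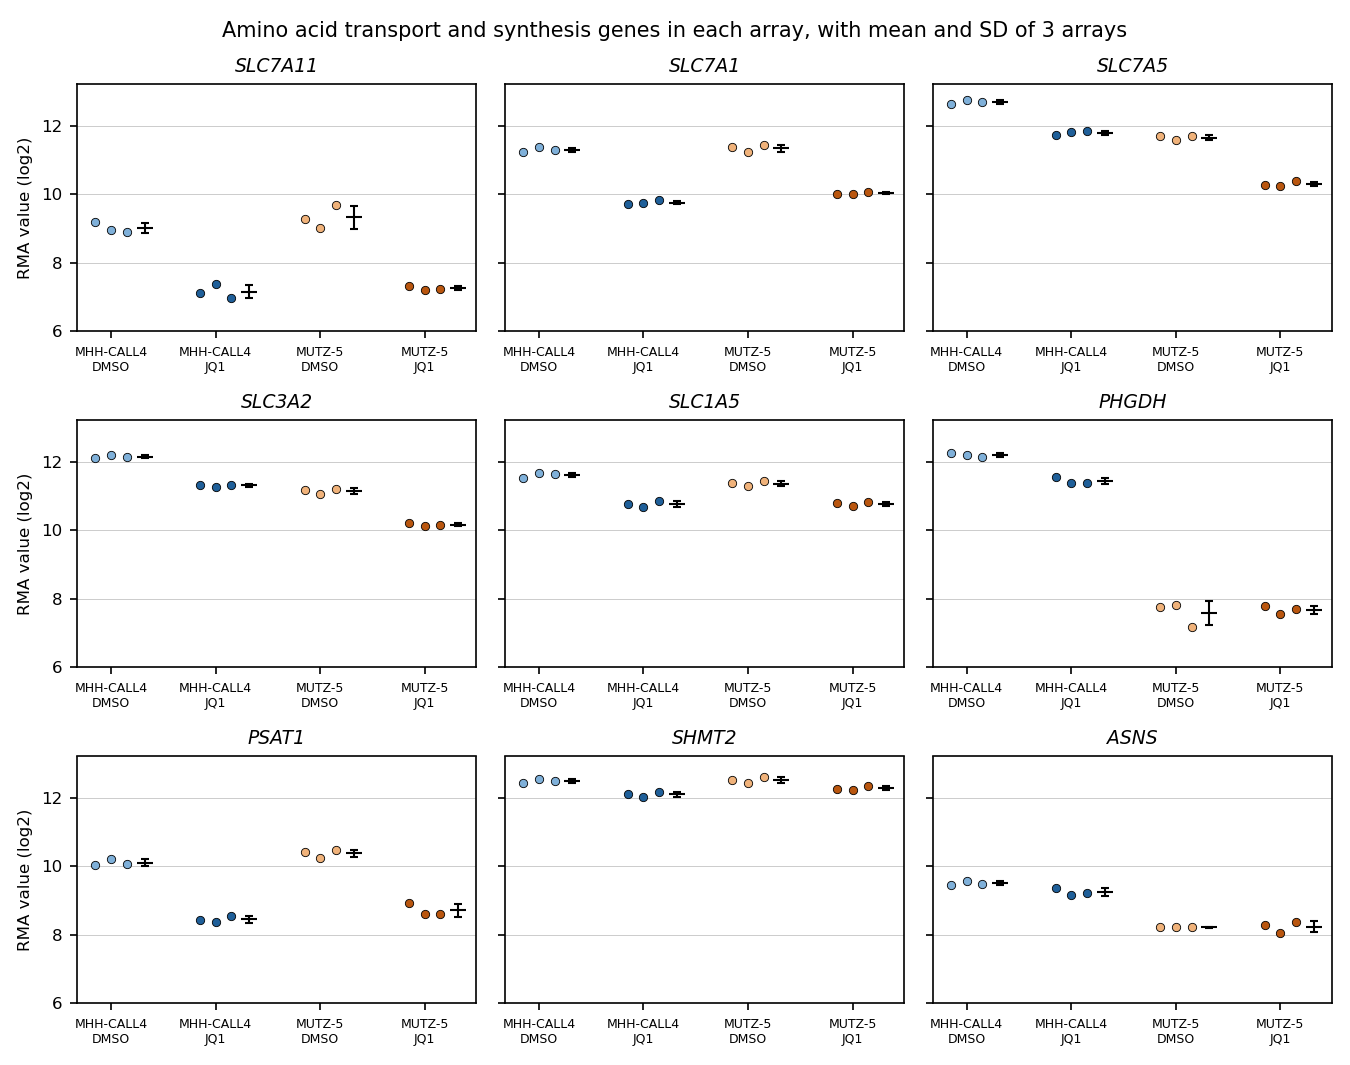
RMA log2 value of each of the 9 genes in each of the 12 arrays (points, y axis), by line and treatment (x axis), with the mean and SD of 3 arrays as a black mark beside them. The JQ1 points lie below the DMSO points of the same line for all genes except PHGDH and ASNS in MUTZ-5, and the 6 PHGDH points of MUTZ-5 lie between 7.18 and 7.81, far below those of MHH-CALL4.

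Among the transporters, the cystine carrier SLC7A11 fell most. In MHH-CALL4 it read 9.18, 8.96 and 8.88 under DMSO and 7.13, 7.38 and 6.98 under JQ1. The MUTZ-5 values were 9.27, 9.02 and 9.69 under DMSO and 7.33, 7.21 and 7.23 under JQ1. In both lines every treated array was lower than every control array by over 1 log2 unit. The difference was -1.85 in MHH-CALL4 (95% interval -2.16 to -1.53, 3.59-fold lower, limma adjusted p = 1.02e-06). It was -2.07 in MUTZ-5 (-2.39 to -1.75, 4.19-fold lower, limma adjusted p = 5.08e-07), the 9th lowest of the 14232 differences in that line. MUTZ-5 DMSO replicate 3 was the highest of its group, and without it the MUTZ-5 difference was -1.89. The files give no detection calls. As a guide to low values, 10 T and NK cell markers other than NKG7, genes typical of other lymphocytes, read between 4.0 and 8.03 on these arrays, and the JQ1 values of SLC7A11 lie in that range.

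SLC7A1, the arginine carrier, fell over 2-fold in both lines. It read 11.24, 11.37 and 11.28 under DMSO and 9.71, 9.74 and 9.82 under JQ1 in MHH-CALL4, a difference of -1.54 (-1.70 to -1.38, 2.91-fold lower, limma adjusted p = 1.14e-08). The MUTZ-5 values were 11.37, 11.23 and 11.42 under DMSO and 10.02, 10.01 and 10.07 under JQ1, a difference of -1.31 (-1.46 to -1.15, 2.48-fold lower, limma adjusted p = 7.57e-08). Treated and control arrays lie well apart, and the 3 treated arrays of each line lie close together. The 2 JQ1 effects differed by 0.23 (0.01 to 0.45), which did not pass the test over all genes (limma adjusted p = 0.443).

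SLC7A5 and SLC3A2, the light and heavy chains of LAT1, both fell in both lines, and MUTZ-5 began from lower values of each. SLC7A5 read 12.63, 12.74 and 12.70 in the DMSO arrays of MHH-CALL4 and 11.73, 11.82 and 11.84 in its JQ1 arrays. It read 11.68, 11.57 and 11.69 in the DMSO arrays of MUTZ-5 and 10.28, 10.24 and 10.37 in its JQ1 arrays. The control arrays of MUTZ-5 sat just below the treated arrays of MHH-CALL4, and none of the 4 groups overlapped. The JQ1 effect on SLC7A5 was -0.90 in MHH-CALL4 (-1.05 to -0.74, 1.86-fold lower, limma adjusted p = 9.78e-07) and -1.35 in MUTZ-5 (-1.51 to -1.20, 2.55-fold lower, limma adjusted p = 5.47e-08).

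For the heavy chain SLC3A2, MHH-CALL4 gave 12.11, 12.19 and 12.14 under DMSO and 11.33, 11.27 and 11.32 under JQ1. MUTZ-5 gave 11.19, 11.05 and 11.19 under DMSO and 10.20, 10.13 and 10.15 under JQ1. Here too the MUTZ-5 controls lay just below the treated MHH-CALL4 arrays, and no groups overlapped. The difference was -0.84 in MHH-CALL4 (-0.99 to -0.70, 1.79-fold lower, limma adjusted p = 9.55e-07) and -0.98 in MUTZ-5 (-1.12 to -0.84, 1.97-fold lower, limma adjusted p = 3.28e-07). The JQ1 effects on SLC3A2 differed between the lines by -0.14 (-0.34 to 0.07, limma adjusted p = 0.700).

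The glutamine carrier SLC1A5 fell less than 2-fold in each line. It read 11.53, 11.66 and 11.64 under DMSO and 10.76, 10.69 and 10.86 under JQ1 in MHH-CALL4, and 11.37, 11.28 and 11.42 under DMSO and 10.78, 10.71 and 10.82 under JQ1 in MUTZ-5. Treated and control arrays were separate in each line, and the treated arrays of the 2 lines overlapped. The difference was -0.84 in MHH-CALL4 (-1.0 to -0.68, 1.79-fold lower, limma adjusted p = 2.20e-06) and -0.59 in MUTZ-5 (-0.75 to -0.43, 1.50-fold lower, limma adjusted p = 6.74e-05). The other cluster with the symbol SLC1A5 was lower and more variable. Its MHH-CALL4 means were 9.04 ± 0.285 under DMSO and 8.74 ± 0.226 under JQ1, and its MUTZ-5 means were 9.10 ± 0.128 and 8.77 ± 0.213 (SD, n = 3). Treated and control values of that cluster overlapped in each line.

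Of the serine pathway, PSAT1, the transaminase of the middle step, fell over 3-fold in both lines. In MHH-CALL4 it read 10.05, 10.21 and 10.05 under DMSO and 8.44, 8.37 and 8.56 under JQ1. In MUTZ-5 it read 10.41, 10.25 and 10.46 under DMSO and 8.92, 8.61 and 8.60 under JQ1. No treated array came within 1 log2 unit of a control array. The differences were -1.65 (-1.86 to -1.43, 3.14-fold lower, limma adjusted p = 8.46e-08) and -1.66 (-1.88 to -1.44, 3.16-fold lower, limma adjusted p = 1.29e-07). They differed between the lines by -0.011, with an interval of -0.32 to 0.29.

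PHGDH, the enzyme of the first step, fell in MHH-CALL4 and did not pass the test in MUTZ-5. It read 12.26, 12.18 and 12.15 under DMSO and 11.54, 11.37 and 11.38 under JQ1 in MHH-CALL4, a difference of -0.76 (-1.05 to -0.47, 1.70-fold lower, limma adjusted p = 8.61e-04). In MUTZ-5 it read 7.76, 7.81 and 7.18 under DMSO and 7.78, 7.56 and 7.70 under JQ1, a difference of 0.099 (-0.19 to 0.39, limma adjusted p = 0.730). The treated arrays of MHH-CALL4 lay below its controls, and those of MUTZ-5 lay among theirs. All 6 MUTZ-5 values lie within the range of 4.0 to 8.03 of the T and NK cell markers, so how far they stand above background, and whether a fall could show there, is not known. MUTZ-5 DMSO replicate 3 was the low one, and without it the MUTZ-5 difference was -0.10 (limma adjusted p = 0.467).

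SHMT2, the mitochondrial enzyme that makes glycine, showed changes well under 2-fold. It read 12.42, 12.53 and 12.50 under DMSO and 12.11, 12.03 and 12.17 under JQ1 in MHH-CALL4, a difference of -0.38 (-0.54 to -0.22, 1.30-fold lower, limma adjusted p = 1.82e-03). In MUTZ-5 it read 12.52, 12.42 and 12.60 under DMSO and 12.24, 12.23 and 12.34 under JQ1, a difference of -0.24 (-0.40 to -0.08, 1.18-fold lower, limma adjusted p = 0.0320). The treated arrays lay below the controls in both lines. The MUTZ-5 call was lost without MUTZ-5 DMSO replicate 1 (limma adjusted p = 0.0887) or 3 (0.0876), without MUTZ-5 JQ1 replicate 1 (0.102) or 2 (0.124), and without MHH-CALL4 DMSO replicate 3 (0.0504), with differences of -0.24 to -0.20.

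ASNS, the asparagine synthetase, had the smallest difference in MHH-CALL4. It read 9.46, 9.57 and 9.47 under DMSO and 9.37, 9.17 and 9.21 under JQ1, a difference of -0.25 (-0.44 to -0.063, 1.19-fold lower, limma adjusted p = 0.0456). In MUTZ-5 it read 8.21, 8.22 and 8.24 under DMSO and 8.28, 8.06 and 8.36 under JQ1, a difference of 0.013 (-0.17 to 0.20, limma adjusted p = 0.953). The MUTZ-5 treated arrays fell on both sides of the controls. All 6 MUTZ-5 values lie just above the range of 4.0 to 8.03 of the T and NK cell markers. Whether a fall could show fully at that level is not known. The MHH-CALL4 call did not hold in 13 of 20 alternatives, among them the extended summaries (-0.08, limma adjusted p = 0.404) and the fits without any 1 of MHH-CALL4 DMSO replicates 1, 2 and 3, MHH-CALL4 JQ1 replicates 2 and 3, MUTZ-5 DMSO replicates 1 and 2, and MUTZ-5 JQ1 replicate 1 (limma adjusted p up to 0.156).

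**Figure D2:**
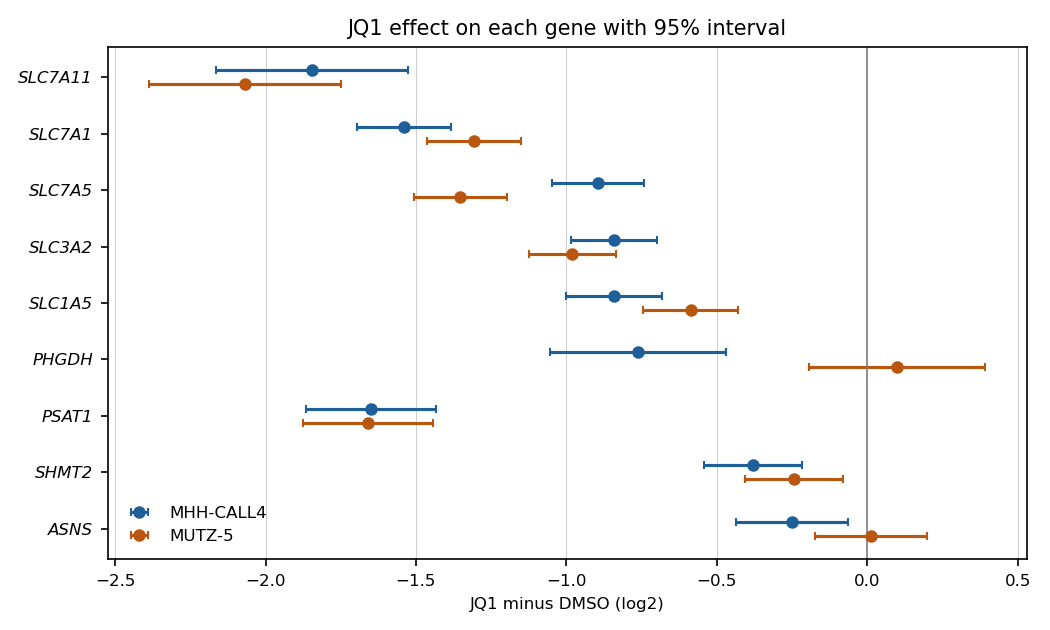
JQ1 minus DMSO difference in log2 units (x axis) for each of the 9 genes (y axis) in MHH-CALL4 (blue) and MUTZ-5 (orange), with bars for the 95% interval of the limma fit. SLC7A11 lies farthest left, at -1.85 and -2.07, and PSAT1 gives nearly the same value in both lines, while the MUTZ-5 intervals of PHGDH and ASNS include 0.

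The JQ1 effects of 2 genes differed between the lines, 1 each way, where 1.53% of all genes were called different in either direction. SLC7A5 fell further in MUTZ-5, by -0.46 (MUTZ-5 minus MHH-CALL4, -0.67 to -0.24, limma adjusted p = 0.0402). For PHGDH, called lower in MHH-CALL4 and not in MUTZ-5, the difference was 0.86 (0.45 to 1.27, limma adjusted p = 0.0419). Both calls stood near the threshold. Both were lost, with adjusted p up to 0.137 for SLC7A5 and 0.116 for PHGDH over all alternatives, when any 1 of MHH-CALL4 DMSO replicates 1, 2 and 3, MHH-CALL4 JQ1 replicates 2 and 3, or MUTZ-5 JQ1 replicates 1 and 2 was left out. SLC7A5 was also lost without MUTZ-5 DMSO replicate 1 and PHGDH without MUTZ-5 JQ1 replicate 3. The replicate block ended both calls too (limma adjusted p = 0.0974 and 0.0908), and median centring (0.0569) and cyclic loess (0.116) ended that of PHGDH. The difference itself ranged from -0.52 to -0.43 for SLC7A5 and from 0.66 to 1.19 for PHGDH. The other 7 genes did not pass this test. For SLC7A11 the effects differed by -0.22 (-0.67 to 0.23), for SLC1A5 by 0.25 (0.03 to 0.48), for SHMT2 by 0.14 (-0.09 to 0.36) and for ASNS by 0.26 (limma adjusted p = 0.479).

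The lines differed in several of these genes before treatment. Under DMSO 5 of the 9 genes were called lower in MUTZ-5 than in MHH-CALL4, where 11.5% of all genes were called lower. The widest gap was that of PHGDH, 12.19 ± 0.0555 in MHH-CALL4 and 7.58 ± 0.349 in MUTZ-5 (SD, n = 3). This is a difference of -4.61 (-4.90 to -4.32, limma adjusted p = 1.87e-11), or 24.5-fold in the measured values. Since the MUTZ-5 values lie in the low range given above, this size and its interval describe the array values, and the ratio of the transcripts is not known. With the extended summaries of the same arrays, which average over more probes, it was -3.08. ASNS was 9.50 ± 0.0623 and 8.22 ± 0.011, a difference of -1.28 (2.42-fold lower in the measured values, limma adjusted p = 8.30e-08). The extended summaries gave -0.63 for ASNS.

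Both chains of LAT1 were lower in MUTZ-5. SLC7A5 differed by -1.04 (2.06-fold lower, limma adjusted p = 9.16e-08) and SLC3A2 by -1.0 (2.0-fold lower, limma adjusted p = 6.95e-08). SLC1A5 differed by -0.25 (limma adjusted p = 0.0237). That call did not hold without MHH-CALL4 DMSO replicate 2 (0.0813) or 3 (0.0820), without MUTZ-5 DMSO replicate 1 (0.0620) or 2 (0.0785), and with both SLC1A5 clusters averaged (-0.095). Values that did not pass were 0.32 for SLC7A11 (0.00 to 0.64, limma adjusted p = 0.145), 0.27 for PSAT1 (0.05 to 0.48, 0.0718), 0.043 for SLC7A1 (-0.11 to 0.20) and 0.032 for SHMT2 (-0.13 to 0.19). SLC7A11 passed without MUTZ-5 DMSO replicate 2 (0.47, limma adjusted p = 0.0363). PSAT1 passed without MUTZ-5 JQ1 replicate 1 (limma adjusted p = 0.0408), with cyclic loess (0.0278) and with the filter on low values (0.0415).

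Under JQ1 the lines kept most of this order. Of the 9 genes 4 were called lower in MUTZ-5 and 1 higher, where 8.25% of all genes were called lower and 11.7% higher. PHGDH differed by -3.75 (13.5-fold lower in the measured values, with the same limit, limma adjusted p = 1.74e-10), and by -1.89 with the extended summaries. SLC7A5 differed by -1.50 (2.83-fold lower), SLC3A2 by -1.14 (2.21-fold lower) and ASNS by -1.01 (2.02-fold lower in the measured values). Their limma adjusted p were 2.50e-09, 1.99e-08 and 9.58e-07. SLC7A1 was higher in MUTZ-5 by 0.27 (1.21-fold, limma adjusted p = 0.0149), which did not hold without MHH-CALL4 JQ1 replicate 1 (0.0576) or 2 (0.0582) or MUTZ-5 JQ1 replicate 3 (0.0549). The treated levels of SLC1A5 were 10.77 ± 0.0829 and 10.77 ± 0.054, and their difference had an interval of -0.16 to 0.16. SLC7A11 (0.098), PSAT1 (0.26) and SHMT2 (0.17) did not pass either. These comparisons share their arrays with the JQ1 effects above and are not independent of them.

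**Figure D3:**
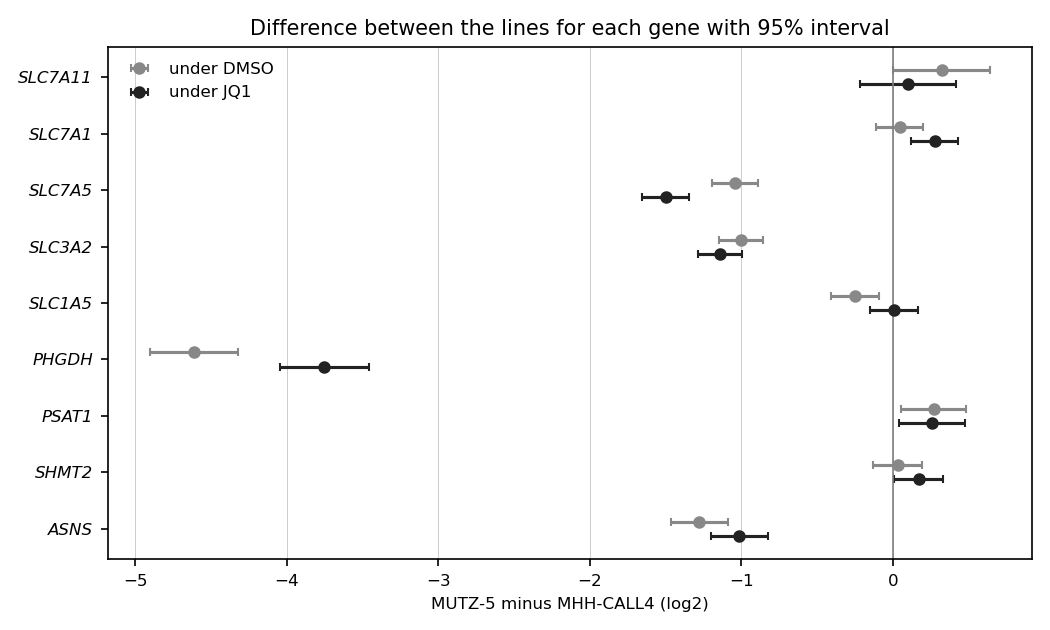
MUTZ-5 minus MHH-CALL4 difference in log2 units (x axis) for each of the 9 genes (y axis) under DMSO (grey) and under JQ1 (black), with bars for the 95% interval of the limma fit. PHGDH stands at -4.61 and -3.75, SLC7A5, SLC3A2 and ASNS lie between -1.50 and -1.0, and the others lie within 0.4 of 0.

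Most other amino acid transporters did not pass the test. Of 31 listed and 29 measured, 9 were called lower and 2 higher in MHH-CALL4, where 17.5% and 11.0% of all genes were. In MUTZ-5, 6 were lower and 1 higher, against 13.0% and 9.06% of all genes, and the medians were -0.042 and -0.037. The glutamine and serine carrier SLC38A5 fell most, from 9.75, 9.84 and 9.63 to 8.02, 8.20 and 8.30 in MHH-CALL4 and from 10.48, 10.39 and 10.67 to 8.82, 8.78 and 8.80 in MUTZ-5. These are differences of -1.56 and -1.71 (limma adjusted p = 6.99e-08 and 6.77e-08), with no overlap in either line. SLC43A1, a carrier of branched-chain amino acids, fell by 1.23 in MHH-CALL4 and 1.29 in MUTZ-5, and the glycine carrier SLC6A9 by 0.93 and 0.65 (0.54 in MHH-CALL4 with the extended summaries). SLC16A10, a carrier of aromatic amino acids, rose by 0.65 and 0.54. SLC7A7, which pairs with SLC3A2 as a light chain, fell by 0.80 in MHH-CALL4 and differed by -0.11 in MUTZ-5 (limma adjusted p = 0.561), where its means of 6.56 and 6.45 lie in the low range of the T and NK cell markers.

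The folate pathway and glycine cleavage genes use the carbon that serine gives. Of 22 listed 15 were measured, with 7 called lower and 2 higher in MHH-CALL4 (17.5% and 11.0% of all genes). In MUTZ-5, 6 were lower and 1 higher (13.0% and 9.06% of all genes), and both medians were -0.24. GLDC, the glycine decarboxylase, read 8.61, 8.93 and 8.64 under DMSO and 6.58, 7.56 and 7.09 under JQ1 in MHH-CALL4, and 8.34, 8.74 and 8.94 and then 7.37, 6.73 and 7.36 in MUTZ-5. GLDC scattered more than the genes above, and its groups did not overlap within a line. Its JQ1 values lie in the low range of the T and NK cell markers, so how far they stand above background is not known. The differences of GLDC were -1.65 and -1.52 (limma adjusted p = 1.35e-04 and 3.38e-04), and -0.79 in each line with the extended summaries. The folate carrier SLC19A1 fell by 1.02 and 0.89, and the folate enzymes MTHFD1 by 1.04 and 0.64 and MTHFD2 by 0.81 and 0.35 (in MUTZ-5 not without MUTZ-5 JQ1 replicate 2, limma adjusted p = 0.0560). In MHH-CALL4 the extended summaries gave -0.56 for SLC19A1 and -0.53 for MTHFD2. Without MUTZ-5 DMSO replicate 3, the JQ1 effects of MTHFD1 and MTHFD2 were called unequal between the lines. These differences were 0.46 and 0.53 (limma adjusted p = 0.0365 and 0.0360), and neither was called on all arrays.

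Of 28 listed enzymes of other amino acids 16 were measured, with 5 called lower and 3 higher in MHH-CALL4 (17.5% and 11.0% of all genes). In MUTZ-5, 3 were lower and 4 higher (13.0% and 9.06% of all genes), and the medians were -0.036 and 0.065. ALDH18A1, which starts proline synthesis, fell by 0.87 and 0.58. OAT, the ornithine aminotransferase, rose by 0.69 and 0.37, a MUTZ-5 call that did not hold without MUTZ-5 DMSO replicate 1 or 2 or MUTZ-5 JQ1 replicate 1 or 2 (limma adjusted p up to 0.147). CBS, which joins serine to homocysteine, read 9.84, 9.73 and 9.86 under DMSO and 8.51, 8.53 and 8.67 under JQ1 in MHH-CALL4, and 7.71, 7.77 and 7.47 and then 7.71, 7.58 and 7.68 in MUTZ-5. Like PHGDH, it was higher in MHH-CALL4 and called lower under JQ1 there, and its MUTZ-5 values lie in the low range of the T and NK cell markers, where whether a fall could show is not known. Its JQ1 effects were -1.24 (limma adjusted p = 3.58e-07) and 0.0081 (limma adjusted p = 0.975), and they differed by 1.25 (limma adjusted p = 1.10e-04), or by 0.46 with the extended summaries (limma adjusted p = 0.127).

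**Figure D4:**
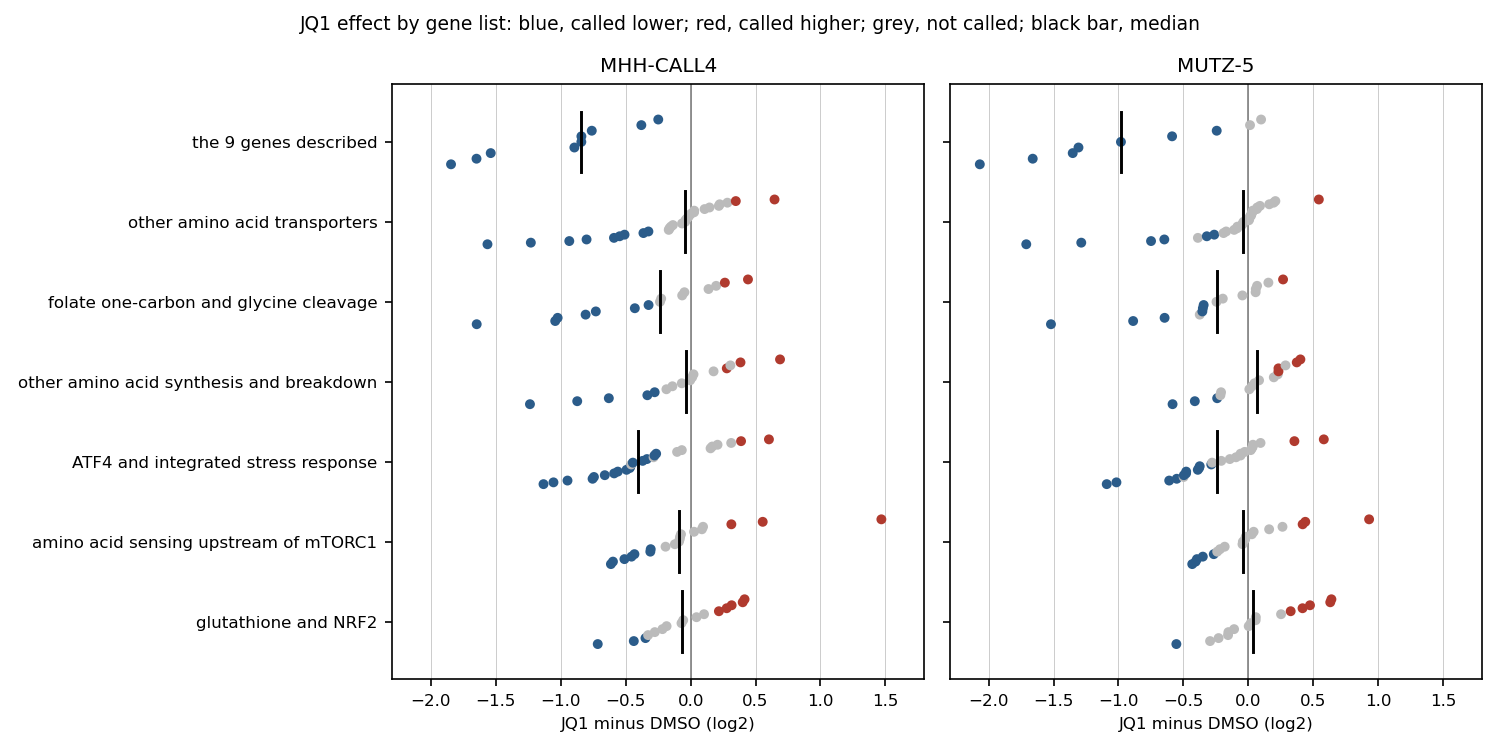
JQ1 minus DMSO difference in log2 units (x axis) for each measured gene (points) of the 9 genes and of 6 other gene lists (y axis), in MHH-CALL4 and MUTZ-5. Blue points were called lower, red higher and grey not called, and black bars are medians, which lie at -0.84 and -0.98 for the 9 genes and between -0.41 and 0.065 for the other lists.

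ATF4, the factor of the amino acid response, was not called in either line on the values as deposited. It read 11.34, 11.50 and 11.52 under DMSO and 11.59, 11.57 and 11.67 under JQ1 in MHH-CALL4, a difference of 0.15 (limma adjusted p = 0.141). With median centring it was 0.20 (limma adjusted p = 0.0312) and with cyclic loess 0.23 (0.0265), both called higher. In MUTZ-5 it read 11.48, 11.40 and 11.50 and then 11.61, 11.49 and 11.56, a difference of 0.094 (limma adjusted p = 0.466). ATF4 is set mainly by translation, which these arrays do not measure. Of the 26 genes of the ATF4 and stress response list, all measured, 16 were called lower and 2 higher in MHH-CALL4, where 17.5% and 11.0% of all genes were. In MUTZ-5, 11 were lower and 2 higher, against 13.0% and 9.06% of all genes, and the medians were -0.41 and -0.24.

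Known ATF4 targets in that list fell in part. CHAC1, which breaks down glutathione, fell by 0.95 and 1.09, the tRNA exporter XPOT by 1.13 and 1.02, the tryptophanyl-tRNA synthetase WARS1 by 1.06 and 0.61, and the transcription factor ATF5 by 0.76 and 0.50. The JQ1 effects on WARS1 were not called unequal between the lines as deposited. They were with median centring (0.45, limma adjusted p = 0.0306), cyclic loess (0.38, 0.0380), the filter on low values (0.45, 0.0354), eBayes with trend and robust (0.45, 0.0283) and without MUTZ-5 DMSO replicate 3 (0.50, 0.0248). TRIB3, a pseudokinase that restrains ATF4, fell by 0.74 in MHH-CALL4 (-0.44 with the extended summaries) and by 0.37 in MUTZ-5 (limma adjusted p = 0.0202). The MUTZ-5 call was lost with the extended summaries (-0.28, limma adjusted p = 0.0528). It was also lost without MUTZ-5 DMSO replicate 1 or MUTZ-5 JQ1 replicate 1 or 2. DDIT3, also called CHOP, fell by 0.45 in MHH-CALL4 and read -0.028 in MUTZ-5. PPP1R15A, the stress-induced phosphatase subunit, rose by 0.60 and 0.58, and SESN2, a leucine sensor, rose by 0.39 and 0.36.

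For the next lists too the shares of all genes called lower and higher were 17.5% and 11.0% in MHH-CALL4, with 13.0% and 9.06% for MUTZ-5. Of 19 measured of 27 genes that pass amino acid signals to mTORC1, 7 were called lower and 3 higher in MHH-CALL4 and 5 lower and 3 higher in MUTZ-5, with medians of -0.090 and -0.042. SESN3, which restrains mTORC1, rose by 1.47 and 0.93, and RPTOR, a core subunit of mTORC1, fell by 0.43 and 0.41. Others in this list went either way. RRAGC rose by 0.31 and 0.42, and its MHH-CALL4 call did not hold with the replicate block (limma adjusted p = 0.0590). RRAGD differed by -0.61 and -0.24. The mean of NPRL3 went from 10.08 to 9.63 in MHH-CALL4 and from 10.25 to 9.90 in MUTZ-5. The activity of mTORC1 was not measured. Of 16 measured of 20 glutathione and NRF2 genes, 3 were called lower and 5 higher in MHH-CALL4 and 1 lower and 5 higher in MUTZ-5, with medians of -0.064 and 0.038. While the cystine carrier SLC7A11 fell, the glutathione synthesis genes GCLC (0.40 and 0.48) and GSS (0.32 and 0.63) rose. GCLM, the partner subunit of GCLC, named here after its values were seen, differed by -0.22 and -0.29 and did not pass (limma adjusted p = 0.275 and 0.170). In MHH-CALL4 the GSS call did not hold without MHH-CALL4 DMSO replicate 1, nor that of GCLC without any 1 of the 3 DMSO replicates or JQ1 replicate 1 or 2 (limma adjusted p up to 0.128), and in MUTZ-5 that of GCLC did not hold without DMSO or JQ1 replicate 1 or 2 (up to 0.0758). KEAP1, which holds NRF2 down, fell by 0.72 and 0.55 (0.41 and 0.29 with the extended summaries). NFE2L2, the gene of NRF2, was not analysed here.

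MYC, whose loss is the best known response to JQ1 in such cells, fell in both lines, from 12.51 ± 0.0382 to 10.46 ± 0.0793 in MHH-CALL4 and from 12.65 ± 0.0555 to 11.33 ± 0.0353 in MUTZ-5 (SD, n = 3). The differences were -2.05 and -1.32 (limma adjusted p = 8.56e-10 and 5.33e-08), and MYC fell less in MUTZ-5 by 0.73 (limma adjusted p = 1.12e-03). Of the 9 genes, SLC7A5 was called for a larger effect in MUTZ-5 (-0.46). PHGDH, low in MUTZ-5, was called the other way (0.86), and both calls were lost in several alternatives. The other 7 were not called, and a relation of these effects to MYC was not tested.

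**Figure D5:**
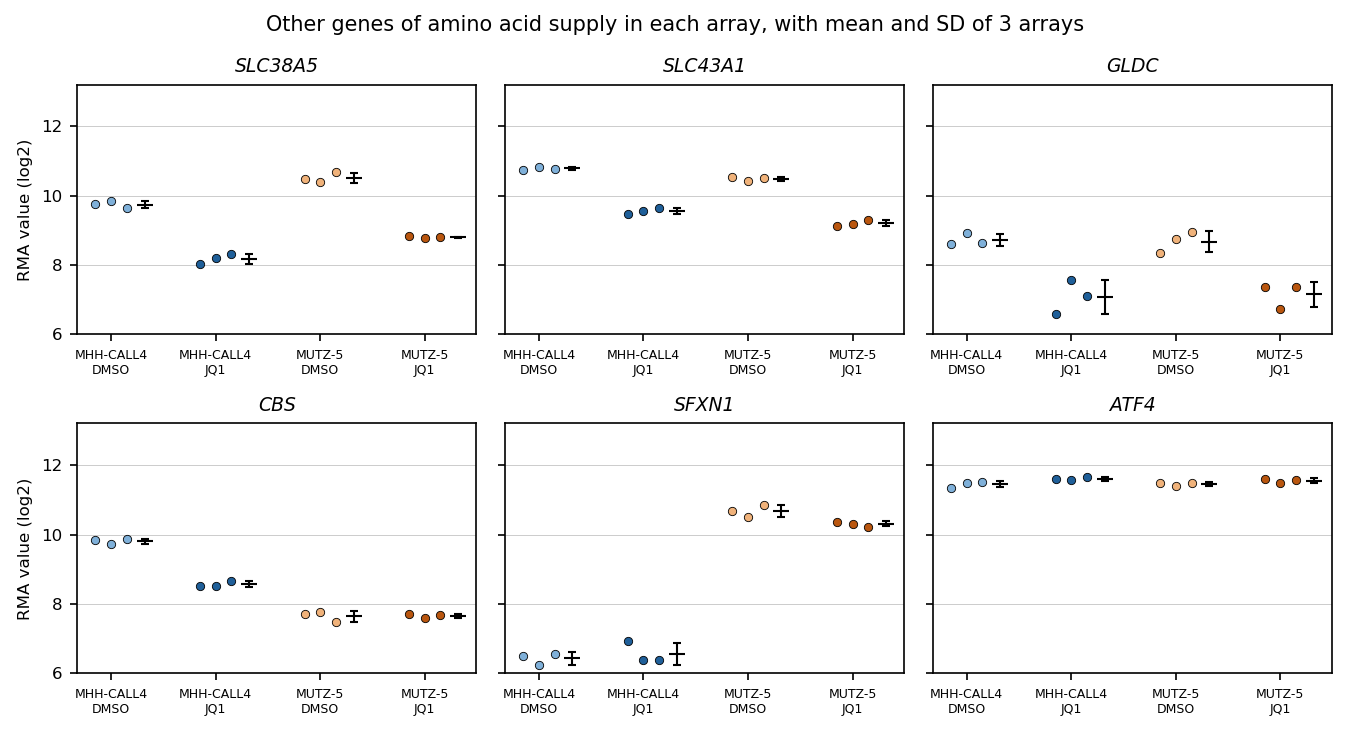
RMA log2 values in each of the 12 arrays (points, y axis) of 6 genes outside the 9, by line and treatment (x axis), with the mean and SD of 3 arrays as a black mark beside them. SLC38A5, SLC43A1 and GLDC are lower under JQ1 in both lines and CBS in MHH-CALL4, SFXN1 is near 6.5 in MHH-CALL4 and above 10 in MUTZ-5, and ATF4 stays between 11.34 and 11.67.

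Over the 12 arrays, the genes whose centred values lay closest to the mean pattern of the 9 genes were NCF4, INO80, WDR74, RTP4 and NKG7, with root mean square differences of 0.0958, 0.123, 0.132, 0.136 and 0.144 log2 units. NCF4, for example, averaged 12.63 and 11.78 in MHH-CALL4 under DMSO and JQ1, and 12.04 and 11.06 in MUTZ-5. The arrays share lines and treatment, so this likeness rests on 4 groups rather than on 12 independent points.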

How the data were processed

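RNA of 12 samples was hybridised to Affymetrix exon arrays. The deposited values are log2 signals that the authors made by RMA in Affymetrix Expression Console, per the labels and the submitters' processing notes. Each array was deposited at the core and the extended level, giving 24 columns from the same 12 arrays. Versions, the genome build and scan dates are not given in the sources used here.

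Of 22011 core clusters, 14432 carry 1 symbol in the array annotation, 2408 carry several and 5171 are not named. For the 197 genes with several clusters the one with the highest mean was kept, which leaves 14232 genes. No further normalization or filter was applied. A model with 1 mean per group was fitted with limma 3.58.1 (lmFit, eBayes) in R 4.3.3 to the 12 core arrays. Tests were two-sided, with Benjamini-Hochberg adjustment over all genes and calls at an adjusted p under 0.05. The fit was tested on simulated data. The labels tie no samples together by replicate number. Deviations of same-numbered arrays correlated above 0.1 in all 3 pairs between the lines under JQ1 (0.225, 0.202 and 0.469). Under DMSO they did not (-0.198, -0.0921 and -0.258). For the genes described, the replicate block changed no call of a level difference between the lines under DMSO or under JQ1. It ended the calls of unequal JQ1 effects for SLC7A5 and PHGDH. Precision is limited by 3 arrays a group. Levels of different probes were compared for the marker counts, the low range, the choice of cluster and the filter on low values. They were not used to rank the genes described.

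The genes described and the lists were chosen with earlier results of these data known. Named genes are the 10 listed, MYC, ATF4, DDIT3, TRIB3 and NFE2L2, up to 4 of the largest called effects each way per list, and the 5 genes closest in pattern. Alternatives were the extended summaries, median centring, cyclic loess, a filter on low values, eBayes with trend and robust, only the arrays compared, a replicate block, the mean of all clusters of a gene, and each array left out.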

Additional observations from a re-analysis of the deposited data

Results flagged for a closer look

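The JQ1 effect differed between the lines by a test of the difference itself (limma, adjusted over all genes) for 2 of the genes described and 3 named beside them. SLC7A5 fell further in MUTZ-5 (-0.46, MUTZ-5 minus MHH-CALL4), and 9 of 20 alternatives lost that call. For PHGDH the difference was 0.86, and 11 of 20 alternatives lost it. In MUTZ-5, PHGDH, SLC7A7 and CBS all read within the range of 4.0 to 8.03 of the T and NK cell markers, so whether a fall could show there is not known. MYC fell less in MUTZ-5 (0.73, limma adjusted p = 1.12e-03), and no alternative of the 20 lost it, with values of 0.61 to 0.76. SLC7A7 fell in MHH-CALL4, a difference of 0.69 between the lines (limma adjusted p = 0.0255), which 9 of 19 alternatives lost, among them each fit without any 1 of the 3 MUTZ-5 JQ1 replicates, MHH-CALL4 DMSO replicate 2, MHH-CALL4 JQ1 replicates 1 and 2, or MUTZ-5 DMSO replicate 2. CBS was called lower in MHH-CALL4, a difference of 1.25 between the lines, with values of 0.46 to 1.31 and 1 lost call over 19 alternatives.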

How the results depend on the processing

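Over 20 alternatives for 45 differences of the 9 genes, 895 values were obtained, of which 842 kept their side of the threshold, 49 lost a call and 4 gained one. Some alternatives cannot move an estimate, such as leaving out an array of a group not compared. The tallies given here therefore do not measure how robust the results are. The sign changed in 22 values of 6 differences, all uncalled on both sides: ASNS and PHGDH in MUTZ-5, the JQ1 effect difference of ASNS and PSAT1, SHMT2 between the lines under DMSO and SLC1A5 under JQ1. For the other named genes 91 of 2736 values lost a call, 33 gained one and 0 turned a called direction. The median of the genes in MHH-CALL4 was -0.76 with cyclic loess. In MUTZ-5 it was -0.88 with the extended summaries and -0.78 with the filter on low values, which drops SLC7A11. The median difference of the JQ1 effects was -0.019 with the extended summaries. Between the lines, the median was -0.63 under DMSO and -0.51 under JQ1 with the filter, and -0.095 under DMSO with all clusters averaged. The count of genes with unequal JQ1 effects, 2, was 1 with median centring, 1 with cyclic loess, 0 with the replicate block and 0 to 2 with 1 array left out. With 1 array left out, counts of called genes ran from 8 to 9 in MHH-CALL4, 6 to 7 in MUTZ-5, 4 to 6 between the lines under DMSO and 4 to 5 under JQ1. The deviations of same-numbered DMSO and JQ1 arrays correlated at 0.299, 0.0703 and 0.229 within MHH-CALL4, and within MUTZ-5 at -0.174, -0.213 and -0.436. These correlations do not settle whether replicate numbers pair the arrays, which is not known for either line. With the replicate block, calls of unequal JQ1 effects over all genes went from 218 to 136, and SHMT2 in MUTZ-5 (adjusted p = 0.0625) and ASNS in MHH-CALL4 (0.0847) lost their calls in limma. With 3 arrays a group and no detection calls, differences near background are the least certain.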

Other observations

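SFXN1, the mitochondrial serine carrier, was chosen after its values were seen. Under DMSO its MHH-CALL4 values were 6.49, 6.23 and 6.57 and its MUTZ-5 values 10.68, 10.49 and 10.87, a difference of 4.25. The MHH-CALL4 values lie in the range of 4.0 to 8.03 of the T and NK cell markers, so no fold is given, and no test applies to a gene picked for its values. PHGDH had the opposite order, with means of 12.19 for MHH-CALL4 against 7.58, and so had CBS, 9.81 and 7.65 in the means of the same groups. Under JQ1 SFXN1 still differed by 3.74. The MUTZ-5 values of PHGDH and CBS lie in that low range too. What these differences mean for the flow of serine was not measured.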
